A study of Populus trichocarpa
Populus deltoides with 74 samples.

Results

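PTD is a DEFICIENS homolog of poplar, and it was represented by 1 of the 217 oligos on the array. It was taken by its row name and is described here over all 19 groups of the study. DEFICIENS of snapdragon and its Arabidopsis counterpart APETALA3 encode MADS-box transcription factors of the B class. They act as heterodimers with GLOBOSA or PISTILLATA and give petals and stamens their identity. Poplars are dioecious trees whose flowers form in catkins inside floral buds, and the flowers lack petals and carry either stamens or carpels.

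All samples were total RNA of wild-type poplars, with Populus trichocarpa and Populus deltoides both given as the organism. The groups were male floral buds of age 6, floral buds of age 6 from trees of unstated sex, male lateral vegetative buds of age 6, and lateral vegetative buds of ages 1, 2, 5 and 6 from trees of unstated sex. Shoot tips from female trees were sampled in June and in May: basal tips at ages 5 and 6, and tips not labelled basal, called upper tips here, at ages 1, 2, 5 and 6. Each group had 2 RNA isolations, a and b, except the June upper tips of age 5, with 1 isolation, and each of the 37 isolations was hybridised to 2 wells, giving 74 arrays. The sources do not say that isolations came from separate trees, so p-values measure the spread between isolations, which may be technical.

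Values are log2 intensities after quantile normalization of the arrays, and the value of an isolation is the mean of its wells. The log base was read from the range of the deposited values. Differences carry the standard error (SE) of limma, a linear model with 1 mean per group fitted to all oligos, and its p-values were adjusted by Benjamini-Hochberg across the 217 oligos. An adjusted p under 0.05 is a call. PTD had a value on every array and was among the dimmest 25% of oligos by mean. Background intensities were not analysed here, so whether PTD was above background outside flowers cannot be judged. Its residual SD between isolations was 0.455, against a median of 0.297 over all oligos.

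PTD was highest in both groups of floral buds. It averaged 8.62 ± 0.37 in male floral buds and 8.28 ± 1.10 in floral buds of unstated sex (SD, n = 2 isolations each). Isolation by isolation, PTD was at 8.36 and 8.88 in male floral buds, against 5.98 and 5.85 in male vegetative buds. In trees of unstated sex it was at 9.05 and 7.50 in floral buds, against 5.74 and 6.22 in vegetative buds of age 6. All 4 floral isolations thus lay above all 4 vegetative isolations of the same age, a separation found for 24.4% of oligos. The isolations of unstated sex were farther apart than those labelled male.

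PTD rose in floral buds by 2.50 ± 0.30 over both tree types (n = 4 and 4 isolations, limma adjusted p = 5.85e-07), in a comparison that called 29.5% of oligos and called 9.68% higher. An exact permutation test of the 4 floral against the 4 vegetative isolation means, two-sided, gave p = 0.0286. That is the smallest its 70 splits allow, and the splits did not keep the tree types apart. By tree type, the rise was 2.71 ± 0.43 in male trees (limma adjusted p = 3.59e-05, 19.8% of oligos called) and 2.30 ± 0.43 in trees of unstated sex (limma adjusted p = 0.000308, 15.7% called). Leaving out isolation a of those floral buds, the rise in trees of unstated sex was 1.52, and leaving out b it was 3.07, both called (limma adjusted p = 0.0248 and 2.56e-05). These sizes rest on the mean of 2 wells that disagreed for PTD. In bulk samples such as these, fewer cells of a type and less RNA per cell cannot be told apart.

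The 2 wells of each floral isolation gave very different PTD values. In male floral buds, PTD was at 6.84 in well 1 and 9.88 in well 2 of isolation a, and at 7.40 and 10.36 in those wells of isolation b. In floral buds of unstated sex, PTD was at 7.76 in well 1 and 10.35 in well 2 of isolation a, and at 6.61 and 8.40 in those wells of isolation b. Well 2 was therefore the brighter well in 4 of 4 floral isolations, by 1.78 to 3.04. In the values as deposited the same gaps were 1.69 to 2.72, so they were present before normalization.

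No such direction was seen in the other organs. Among the 33 isolations that were not floral buds, well 2 was the brighter well for PTD in 19, and the gap of well 2 minus well 1 ran from -2.47 to 1.25 with a median of 0.07. In the 4 vegetative isolations of age 6 the gap was 0.87 and -2.20 in male trees and -0.91 and 0.34 in trees of unstated sex, so its sign changed within both groups. The June upper tips of age 1 showed the reverse of the floral buds, with PTD at 8.01 and 8.21 in well 1 and at 5.53 and 6.87 in well 2 of isolations a and b. Both of these well 1 values lie above every floral value of well 1.

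Among the 208 oligos with a value in every floral well, PTD had the largest mean gap, 2.59. The next was the clone oligo C092P78U, named here after its values were seen, with a mean gap of 1.36, and the median size over these oligos was 0.14. The other flower genes had smaller mean gaps in floral buds. Well 2 minus well 1 in floral buds averaged 0.31 for PTAG1, -0.12 for PTAG2, 0.13 for PTAP1-1B and 0.07 for PTLF. PTAP1-2A was the brightest oligo on 6 of the 8 floral arrays, which quantile normalization ties at 14.26, so its gap is given from the deposited values, where it averaged 0.12 (-0.02 to 0.30), against 2.38 for PTD. The cause of the gap, and which of the wells gives the truer level, was not tested.

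**Figure D1:**
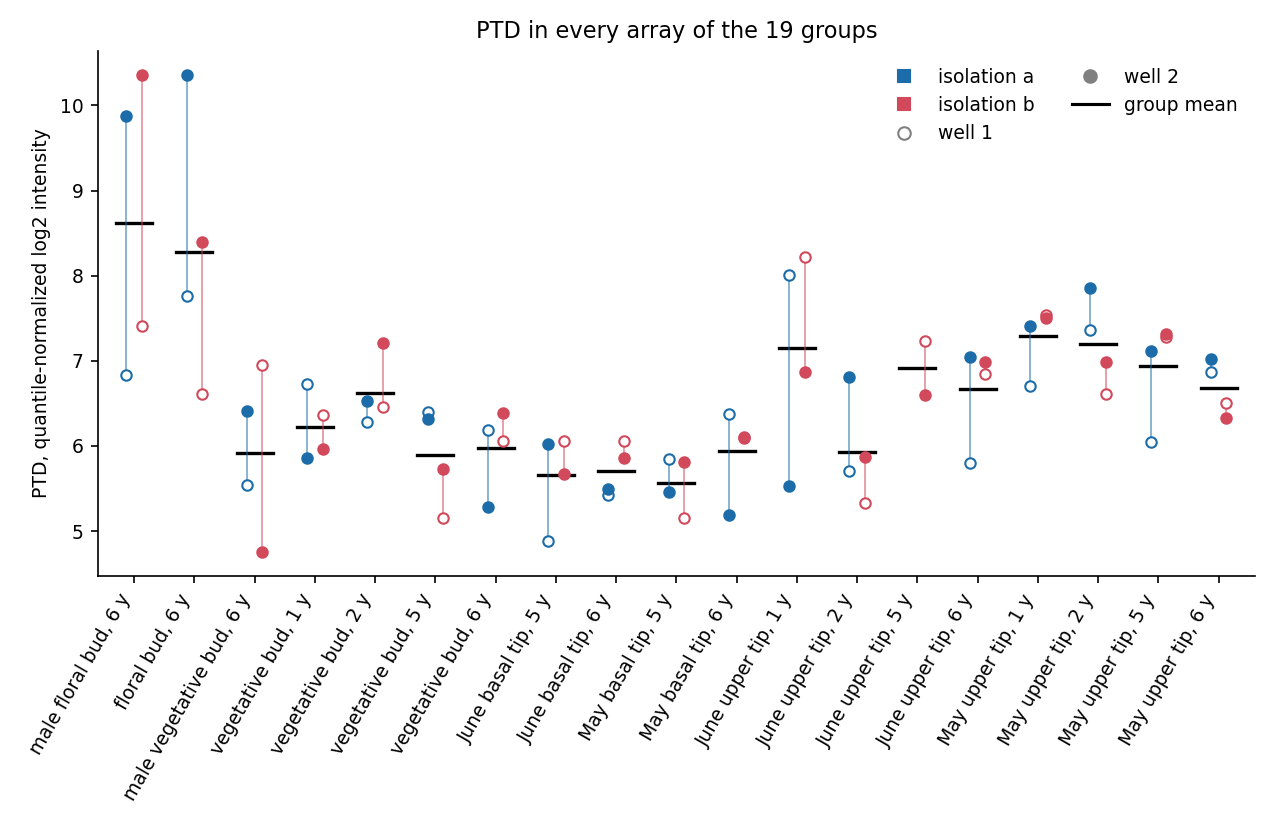
PTD in each of the 74 arrays, as quantile-normalized log2 intensity, in the 19 groups with tree age in years (y). Open points are well 1 and filled points well 2 of an isolation, thin lines join the wells, and bars are group means; the floral wells spread from 6.61 to 10.36, with well 2 on top in all 4 isolations.

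**Figure D2:**
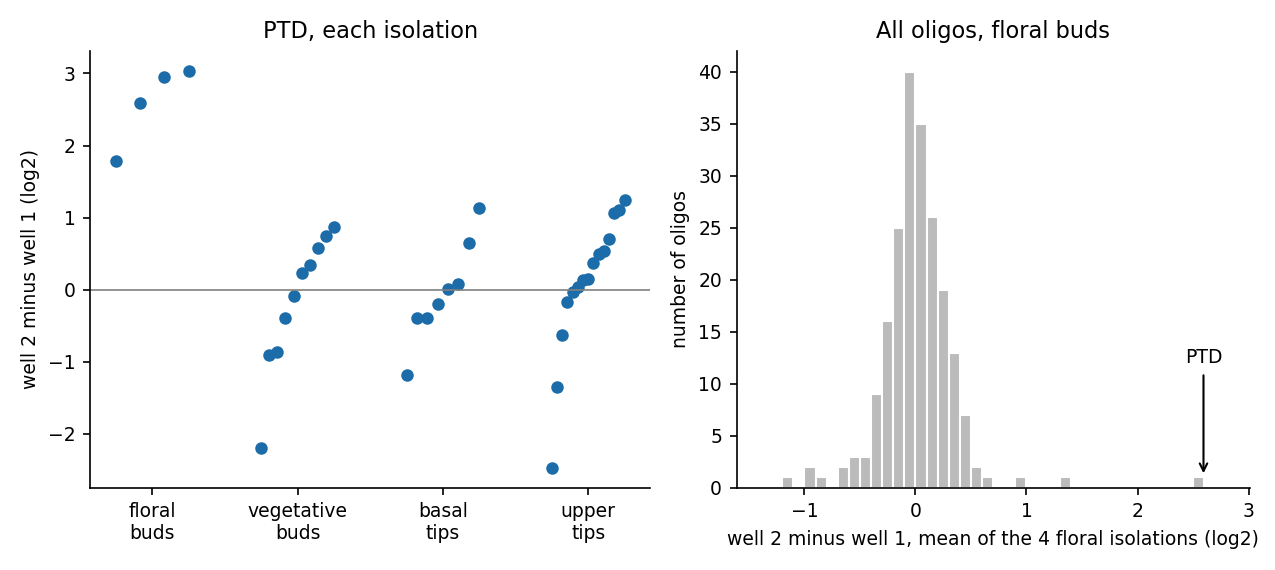
Left, PTD in well 2 minus well 1 (log2) for each isolation by organ, sorted within an organ; the 4 floral isolations lie between 1.78 and 3.04. Right, the mean of that gap over the 4 floral isolations for 208 oligos, with PTD at 2.59.

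Each well was then used alone, a choice made after the gap had been seen. In well 2, PTD was at 8.40 to 10.36 in floral buds, against 4.75 to 6.41 in vegetative buds of age 6, and 0 of the 33 other arrays reached the lowest floral value. The difference was 4.04 ± 0.41 (95% confidence interval 3.18 to 4.90, limma adjusted p = 7.66e-08). In well 1, PTD was at 6.61 to 7.76 in floral buds, against 5.54 to 6.95 in vegetative buds of age 6, and 11 of the 33 other arrays lay above the lowest floral value. Here the difference was 0.97 ± 0.38 (95% confidence interval 0.18 to 1.76) and did not pass (limma adjusted p = 0.0625). The direction was the same in both wells, while the size of the difference and the call depended on the well. How many other oligos gave such counts of arrays was not worked out.

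By tree type, well 1 alone gave 0.87 ± 0.54 in male trees and 1.06 ± 0.54 in trees of unstated sex, and neither passed (limma adjusted p = 0.321 and 0.232). Well 2 alone gave 4.54 ± 0.59 and 3.54 ± 0.59 for these tree types, and both passed (limma adjusted p = 3.25e-06 and 0.000108). With wells entered as separate arrays and the isolation as a random block, the rise over both tree types stays at 2.50 by design. Its SE was then 0.46 (limma adjusted p = 7.07e-06).

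Male trees were then compared with trees of unstated sex. In floral buds the difference in PTD, male minus unstated, was 0.34 ± 0.43 (95% confidence interval -0.55 to 1.23, limma adjusted p = 0.825) and did not pass. In vegetative buds of age 6 the difference was -0.07 ± 0.43 (95% confidence interval -0.95 to 0.82, limma adjusted p = 0.945). The floral rise itself differed between male and unstated trees by 0.41 ± 0.61 (95% confidence interval -0.85 to 1.66, limma adjusted p = 0.942), which did not pass either. Limma called 0 oligos for the first and 0 for the last of these comparisons, where 25 and 19 oligos had an unadjusted p under 0.05, and it called 2.3% of oligos for vegetative buds. The intervals allow differences of over 1 log2 unit between the floral groups. Leaving out isolation b of the floral buds of unstated sex, the lower of that group, turned the floral difference to -0.43, and leaving out isolation a moved it to 1.12.

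The other flower genes were a list of 5: PTAG1 and PTAG2, homologs of AGAMOUS, which specifies stamens and carpels; PTAP1-1B and PTAP1-2A, homologs of APETALA1, which acts in floral meristem identity; and PTLF, a homolog of LEAFY, which in Arabidopsis activates the B and C class genes. All 5 rose in floral buds over both tree types with a median of 4.61, while the median over all oligos was -0.07. The rise was 1.26 ± 0.16 for PTLF, 3.39 ± 0.42 for PTAP1-1B, 4.61 ± 0.31 for PTAG2 and 5.31 ± 0.41 for PTAG1. For PTAP1-2A, which has ties at the top of the normalized scale, it was 5.59 ± 0.52, and in the deposited values it was 5.20 ± 0.60. The sizes are not set against that of PTD, since oligos can differ in response.

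**Figure D3:**
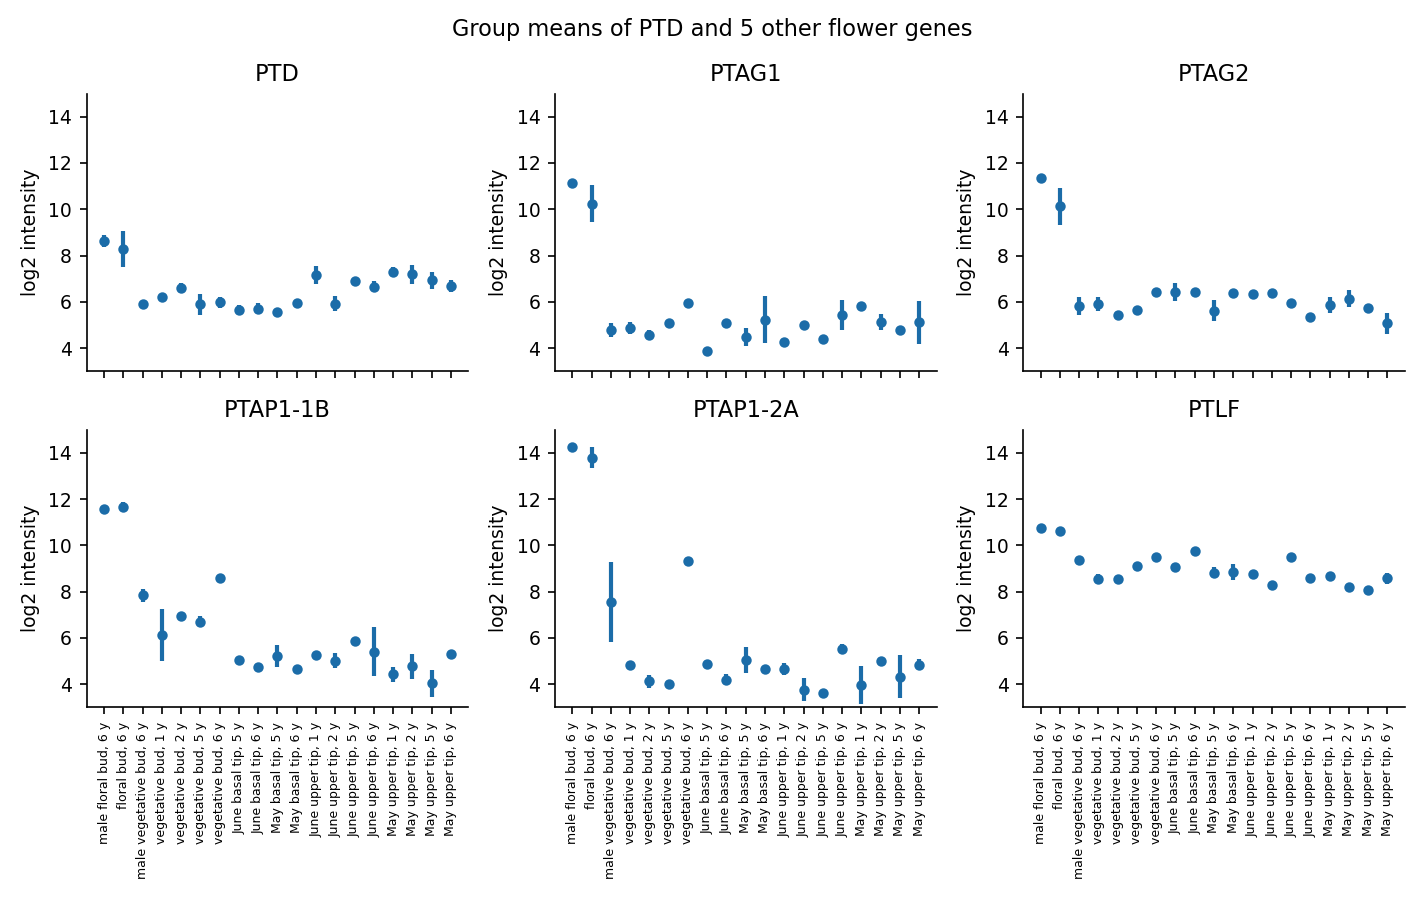
Group means (points) and the range of the isolations (vertical lines) of PTD and 5 other flower genes, as quantile-normalized log2 intensity over the 19 groups. All 6 genes are highest in both floral groups at the left. In male and unstated vegetative buds of age 6, PTAP1-2A (7.56 and 9.31) and PTAP1-1B (7.84 and 8.59) have their next highest means. PTD is at 5.91 and 5.98 there.

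Of these 5 genes, 1 was called between vegetative buds of age 6 and age 5 from trees of unstated sex. PTAP1-2A averaged 9.31 at age 6, against 4.03 at age 5, and rose by 5.28 ± 0.73 (limma adjusted p = 7.42e-05), while PTAP1-1B, at 1.89 ± 0.60, did not pass (limma adjusted p = 0.0839), nor did PTAG1, PTAG2 and PTLF. The mean of the 5 genes was 10.94 to 11.86 in floral isolations, 6.50 to 8.03 in the 4 vegetative isolations of age 6 and 5.89 to 6.20 in the 6 of ages 1, 2 and 5. In the isolations of male vegetative buds, PTAP1-2A alone was at 5.83 and 9.29. PTD averaged 5.98 ± 0.34 at age 6 and 5.90 ± 0.65 at age 5 (SD, n = 2 isolations each), a difference of 0.08 ± 0.43 (95% confidence interval -0.81 to 0.97, limma adjusted p = 0.969, 5.07% of oligos called). The part of any floral tissue in these buds was not tested.

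Age was compared within each organ, setting ages 5 and 6 against ages 1 and 2. PTD in vegetative buds averaged 6.23 ± 0.09 at age 1, 6.62 ± 0.30 at age 2, 5.90 ± 0.65 at age 5 and 5.98 ± 0.34 at age 6 (SD, n = 2 isolations each). The difference between older and younger vegetative buds, -0.48 ± 0.30 (95% confidence interval -1.11 to 0.14), did not pass (limma adjusted p = 0.247), in a comparison that called 29.5% of oligos. Age 5 alone against ages 1 and 2 gave -0.53 ± 0.37 (limma adjusted p = 0.331, 30.4% called). Without isolation b of age 5 these differences were -0.26 and -0.07, and without isolation a of age 5 they were -0.71 and -0.98, none of them called. Of the 5 flower genes, PTLF and PTAP1-2A rose in the older vegetative buds, by 0.74 ± 0.16 and 2.18 ± 0.52 (limma adjusted p = 0.00128 and 0.00227). At age 5 alone against ages 1 and 2, PTLF rose by 0.54 ± 0.20 (limma adjusted p = 0.0469), whereas PTAP1-2A differed by -0.46 ± 0.64 and did not pass (limma adjusted p = 0.681).

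PTD in May upper tips averaged 7.29 ± 0.33, 7.20 ± 0.58, 6.94 ± 0.51 and 6.68 ± 0.37 at ages 1, 2, 5 and 6 (SD, n = 2 isolations each). These 4 means follow the order of age, but the isolations of neighbouring ages overlapped and the difference of -0.44 ± 0.30 (95% confidence interval -1.07 to 0.19) did not pass (limma adjusted p = 0.472, 6.45% of oligos called). Leaving out 1 isolation gave -0.64 to -0.23, without a call, and the value nearest 0 was that without isolation a of age 2. PTD in June upper tips averaged 7.16 ± 0.54, 5.93 ± 0.46 and 6.67 ± 0.35 at ages 1, 2 and 6 and was at 6.92 in the only isolation of age 5. Here the age difference was 0.25 ± 0.34 (95% confidence interval -0.45 to 0.95, limma adjusted p = 0.692, 7.83% called). It was not called either when 1 isolation was left out, at 0.06 (without isolation a of age 1) to 0.44 (without isolation b of age 1). Within the 1 hybridisation set, inferred as described below, that holds ages 2, 5 and 6, it was 0.86 and not called. None of the 5 flower genes was called with age in May or in June tips.

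**Figure D4:**
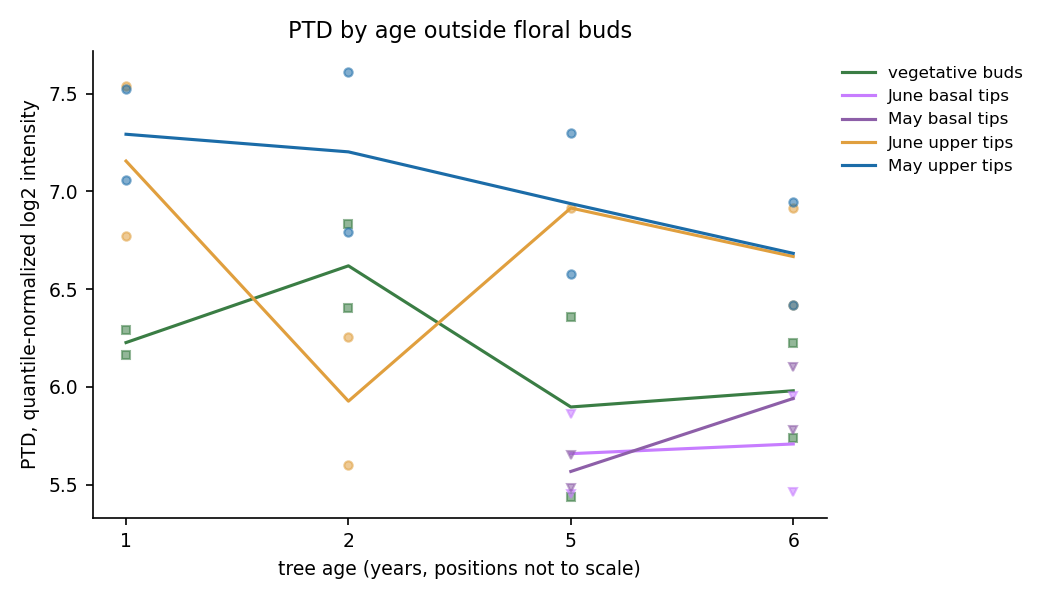
PTD (quantile-normalized log2 intensity) against tree age for organs other than floral buds; points are isolations and lines join group means. Basal tips lie below upper tips at ages 5 and 6, and the June upper tips of age 2 lie low among upper tips.

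Basal shoot tips held less PTD than upper tips. PTD was at 5.45 to 6.10 in the 8 basal isolations, with a median of 5.72, against 6.42 to 7.30 in the 7 upper isolations of ages 5 and 6, with a median of 6.91. The isolations did not overlap, which held for 5.99% of oligos in this comparison. PTD fell by 1.08 ± 0.23 in basal tips (n = 8 and 7 isolations, 95% confidence interval of the difference -1.55 to -0.61, limma adjusted p = 0.000402), where 46.1% of oligos were called and 17.1% were called lower and 29% higher. The matched differences were -1.37 in May and -1.26 in June at age 5, and -0.74 in May and -0.96 in June at age 6, all of the same sign.

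The basal difference was seen in either well, at -0.99 ± 0.29 in well 1 and -1.18 ± 0.31 in well 2 (limma adjusted p = 0.00698 and 0.00343). The labels give no plate, so isolations were sorted into groups, called hybridisation sets here, by the differences between their wells over the other oligos. Whether these sets match plates or batches was not tested, and they partly follow organ and month. In the sets that hold both kinds of tip, only age 5 could be matched by month. The basal difference was -1.46 in June (1 basal against 1 upper isolation) and -1.29 in May (1 basal against 2 upper isolations). Neither passed in these smaller fits. Isolation b of age 5 May basal tips fell into another set when the sets were drawn from the deposited values, and the second difference then was -1.37 ± 0.36 and passed (limma adjusted p = 0.019). With the set as a term the basal difference was -1.17 ± 0.41 (limma adjusted p = 0.0371), and with that isolation placed the other way no such fit could be made. Of the other 5, PTAG2 rose in basal tips by 0.70 ± 0.23 and PTLF by 0.45 ± 0.12 (limma adjusted p = 0.0156 and 0.00529), and 0 fell. PTAG1, PTAP1-1B and PTAP1-2A differed by -0.26 ± 0.31, -0.25 ± 0.32 and 0.11 ± 0.39 and did not pass. The median over all oligos was 0.12.

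Month was compared at matched age. PTD in upper tips differed by -0.36 ± 0.23 between June and May (95% confidence interval -0.83 to 0.11, limma adjusted p = 0.208, 35.9% of oligos called). Well 1 alone gave -0.07 and well 2 alone -0.66, and neither passed (limma adjusted p = 0.868 and 0.0934). Age by age, June minus May was -0.14, -1.28, -0.02 and -0.02 (ages 1, 2, 5 and 6). At age 2 it was negative in both wells, -1.47 in well 1 and -1.08 in well 2, whereas its sign differed between the wells at the other ages. At age 1 it was 0.99 in well 1 and -1.26 in well 2. At age 2 PTD was at 6.25 and 5.60 in June isolations, against 7.61 and 6.79 in May isolations, without overlap, as was the case for 53% of oligos. In basal tips the difference between months was -0.07 ± 0.30 (95% confidence interval -0.70 to 0.56, limma adjusted p = 0.916, 27.6% called). PTLF rose in June in both kinds of tip, by 0.40 ± 0.12 in upper and 0.57 ± 0.16 in basal tips (limma adjusted p = 0.0144 and 0.011).

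Vegetative buds held less PTD than May upper tips of the same ages. PTD was at 5.44 to 6.83 in the 8 bud isolations, against 6.42 to 7.61 in the 8 tip isolations, with a median of 6.26 in the buds, and the ranges overlapped. PTD fell by 0.85 ± 0.21 in the buds (limma adjusted p = 0.00162, 60.4% of oligos called, 27.6% lower), and the matched difference was negative at all 4 ages, from -1.07 at age 1 to -0.58 at age 2. The tips were from female trees and the sex of the bud trees was unstated, so organ and sex cannot be told apart. The labels give no month for the buds, so organ and season cannot be told apart either. No bud isolation shared a hybridisation set, as inferred from the well differences, with a May upper tip. With the set as a term the difference was -1.15 ± 0.93 (limma adjusted p = 0.442), a fit that also rests on the placement of that 1 isolation of May basal tips. Against June upper tips it was -0.49 ± 0.23 and did not pass (limma adjusted p = 0.064, 67.7% called), with a positive matched difference, 0.69, at age 2 and negative ones at the other ages. This difference passed without isolation a of the vegetative buds of age 5 (-0.60), isolation a of the June upper tips of age 1 (-0.58) or isolation b of those of age 2 (-0.57), with limma adjusted p = 0.0291, 0.0363 and 0.0417. Of the 5 flower genes, 3 rose in vegetative buds relative to May upper tips: PTAP1-1B by 2.45 ± 0.30, PTLF by 0.54 ± 0.12 and PTAP1-2A by 1.03 ± 0.37 (limma adjusted p = 2.56e-07, 0.000344 and 0.0189). PTAP1-2A was not higher in the buds at every age, averaging 9.31 in buds and 4.85 in tips at age 6 but 4.13 in buds and 5.02 in tips at age 2 and 4.03 in buds and 4.32 in tips at age 5.

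Floral buds were also set against the shoot tips of the same age. The tips were from female trees and the floral buds from male trees or trees of unstated sex, so organ and sex cannot be told apart. Nor can organ and season, since the labels give no month for the floral buds. PTD was at 7.50 to 9.05 in the 4 floral isolations, against 5.46 to 6.95 in the 8 tip isolations of age 6. The isolations did not overlap, which held for 33.6% of oligos in this comparison. The rise in floral buds was 2.20 ± 0.26 (limma adjusted p = 1.66e-07, 68.7% of oligos called, 30.4% higher). With well 1 alone it was 0.91 ± 0.33 (limma adjusted p = 0.0205) and with well 2 alone 3.49 ± 0.36 (limma adjusted p = 2.41e-08). No floral isolation shared a hybridisation set, as inferred from the well differences, with these tips. With the set as a term the difference, 1.45 ± 0.86, did not pass (limma adjusted p = 0.251). This fit also rests on the placement of isolation b of May basal tips of age 5.

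**Figure D5:**
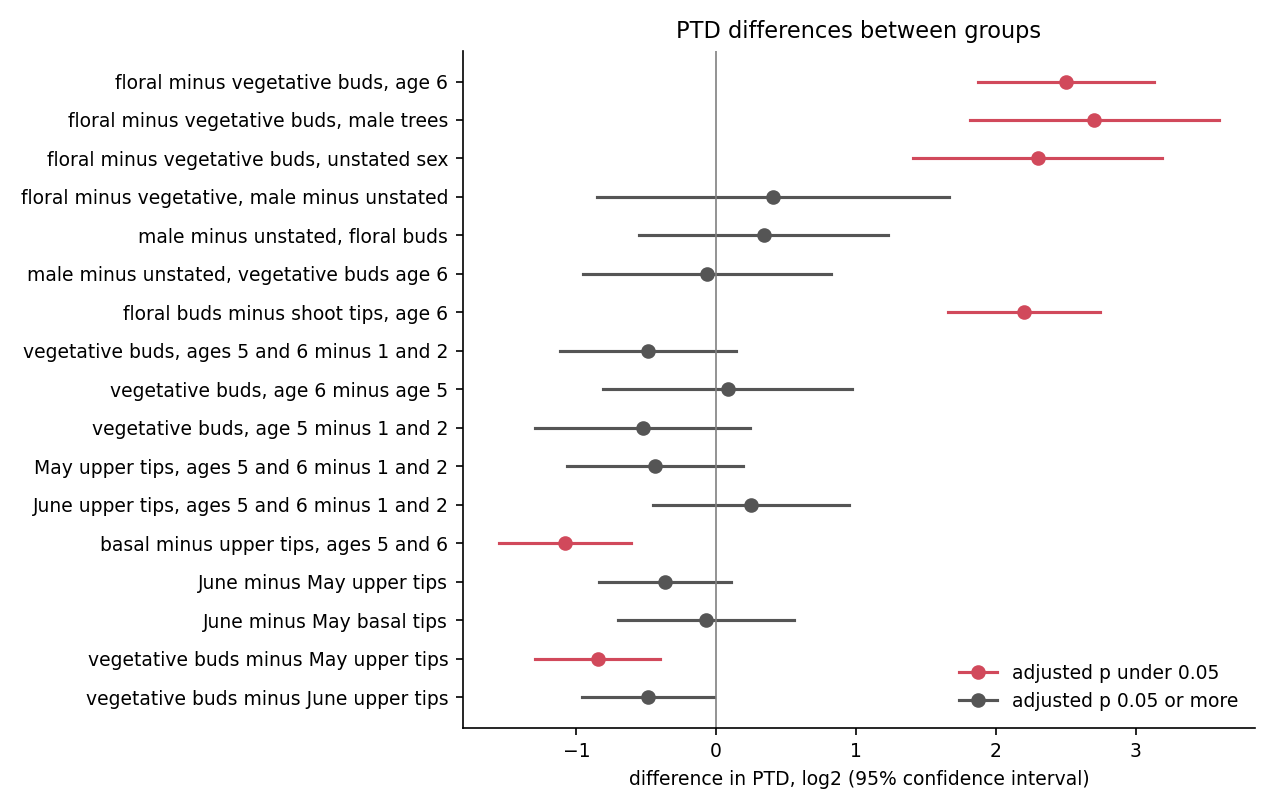
Differences in PTD (log2) between groups, with 95% confidence intervals from limma on the mean of both wells; the group named first is on top of the difference. The called ones, in red, are the 4 comparisons of floral buds with vegetative buds or tips, basal against upper tips, and vegetative buds against May upper tips.

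Ordered by mean, PTD ran from 8.62 in male floral buds to 5.57 in May basal tips of age 5. After both floral groups came the May upper tips of ages 1 and 2 (7.29 and 7.20), the June upper tips of age 1 (7.16), the upper tips of age 5 (6.94 in May and 6.92 in June) and those of age 6 (6.68 in May and 6.67 in June). Vegetative buds of ages 2, 1 and 6 followed at 6.62, 6.23 and 5.98, then May basal tips of age 6 at 5.94, June upper tips of age 2 at 5.93, male vegetative buds at 5.91, and vegetative buds of age 5 at 5.90. June basal tips of ages 6 and 5 (5.71 and 5.66) and May basal tips of age 5 stood last. Of the 18 pairs of neighbours in this order, only the vegetative buds of age 2 and age 1 had isolations that did not overlap. The floral buds of unstated sex were not wholly apart either. Of the 33 isolations that were not floral buds, 3 lay above their isolation b, at 7.50. These were 7.61 in May upper tips of age 2, 7.54 in June upper tips of age 1 and 7.52 in May upper tips of age 1. Both male floral isolations, at 8.36 and 8.88, lay above all 33. The shares of all oligos with such overlaps or separations were not worked out.

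Among the 17 groups without floral buds PTD still varied, with a moderated F of 3.71 in limma (adjusted p = 0.00421), as did 82.5% of oligos. The call was lost when wells entered as separate arrays (F of 1.63, limma adjusted p = 0.101). The wells differed for PTD in these groups as well, with a mean size of the gap of 0.66 over the 33 isolations. Outside floral buds this size was 0.99 for PTAG1, 0.79 for PTAP1-2A, 0.65 for PTAG2, 0.57 for PTAP1-1B and 0.24 for PTLF.

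The oligos most like PTD were sought by Pearson r over the 19 group means, among 212 oligos with a mean in every group. Group means share the arrays, their scaling and the shared contrast of floral buds with the rest, so these values only describe. The highest were the clone oligos V016F11 (r = 0.80) and V059D02 (0.71) and, among oligos with a gene-like name, PTAG1 (0.76), PTAG2 (0.69), PTAP1-2A (0.62), PTAP1-1B (0.55) and the phytochrome PHYA (0.45). The lowest with a gene-like name were the auxin response gene PttIAA6 (-0.78), lowest of all, and the homeobox gene HB1 (-0.47), which ranked 191 of 212, and the lowest clone oligos were UM44TA01 (-0.73) and A010P29U (-0.71).

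The likeness to flower genes rested on the floral buds. Over the 17 other groups r was 0.13 for PTAG1, -0.27 for PTAG2, -0.26 for PTAP1-2A, -0.29 for PTAP1-1B and -0.46 for PTLF. There the highest among gene-like names were PttIAA4, an Aux/IAA gene (0.64), PMFT, a relative of MOTHER OF FT (0.46), and PttIAA1 (0.31). By rank over all 19 groups, Spearman rho with PTD was 0.44 for PTAG1 and 0.15 for both PTAG2 and PTAP1-2A. The files pair the clone names with no gene.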

How the data were processed

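Poplar RNA labelled with Cy5 was hybridised to oligonucleotides printed in duplicate in the wells of 96-well plates, per the labels and design text. The deposited table holds 1 value per oligo and array, taken here as log2 intensity because its values run from 1.10 to 16.25; no source used here gives the log base, the background correction or any earlier normalization. Array medians ran from 8.05 to 8.79, and 1.35% of values were missing and stayed so. Arrays were quantile-normalized, wells averaged per isolation, and 19 group means fitted to 37 isolations in limma 3.58.1 (R 4.3.3; 18 residual degrees of freedom), with two-sided moderated tests. On simulated data for floral against vegetative buds, over 213 oligos, 18 of 20 changes of 1 log2 unit and 20 of 20 of 2 units were recovered, with 2 false calls.

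The gene, the lists and the comparisons were chosen with earlier results of these data known. Genes named are PTD, 5 flower genes, and by r with PTD over group means the 5 highest and 2 lowest gene-like names, the 2 highest and 2 lowest clone names, and the 3 highest gene-like names without floral buds.

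No plate is given. Well differences over the other oligos sorted the isolations into 5 hybridisation sets of 7, 10, 9, 2 and 9 (average linkage on normalized values, after the data were seen). The least firmly placed was isolation b of May basal tips at age 5, with a mean r of 0.11 to its set and 0.08 to the next. Deposited values placed it in the other of these, and the normalized scale was taken after both placements had been seen. Alternatives were other scalings, wells as separate arrays, fits to the compared groups, set terms, each well alone, the isolation letter as a block and leaving out isolations. For the floral rise, the exact permutation test was also counted. The number of arrays limits the precision.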

Additional observations from a re-analysis of the deposited data

Results flagged for a closer look

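In 3 of the 18 groups with 4 arrays, the lowest PTD array stood far from the other arrays of its group. The gap to the nearest array, as a share of the group's whole range, was 0.842 in June upper tips of age 6, 0.845 in May upper tips of age 1 and 0.839 in May upper tips of age 5, each above Dixon's 95% critical value for 4 samples. Chance alone flags about 1 in 20 groups of independent values. The arrays of a group are pairs of wells of its isolations, so that rate need not hold here. In each of the 3 the low array was well 1 of isolation a, at 5.79, 6.71 and 6.04 in the order given.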

How the results depend on the processing

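The rise of PTD in floral buds of age 6 kept its direction in all 19 alternatives, at 0.97 to 4.04. The p stayed under 0.05 in 18, adjusted in all but the exact permutation test, whose p is for PTD alone. The call was lost with well 1 alone (0.97). Leaving out an isolation changed no call there (2.12 to 2.89). Not all 19 are separate checks of the size. Wells as separate arrays, the fit to the compared groups, the isolation letter and the permutation test return 2.50 by design. The set terms, the fit within a set and leaving out isolation a of vegetative buds of age 6 all gave the same 2.38. With well 1 alone the rise also lost its call in male trees (0.87) and in trees of unstated sex (1.06); in trees of unstated sex it did so too in a fit to the compared groups (2.30) and within a hybridisation set (2.06).

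Basal against upper tips lost its call within each of 2 sets (-1.46 in June and -1.29 in May), which allowed only age 5 and held 1 matched basal isolation each. With the sets drawn from deposited values, which moved 1 isolation, it was -1.46 (not called) and -1.37 (called) within those sets. With the set as a term, floral buds against tips (1.45) and vegetative buds against May tips (-1.15) lost theirs. The F test lost its call with wells as separate arrays (1.63). Of the comparisons that did not pass, some changed sign. With well 1 alone these were male minus unstated in floral (-0.064) and vegetative buds (0.12), the difference of the floral rises (-0.19) and age in June tips (-0.039). Vegetative buds of age 6 minus 5 did so with well 2 alone (-0.18), and at -0.16 with the set as a term (either placement) and within a set, and June minus May basal tips as deposited (0.00625) and with well 2 alone (0.12). Leaving out an isolation gave -0.37 to 1.18 for the difference of the floral rises, -0.43 to 1.12 for male minus unstated in floral and -0.31 to 0.18 in vegetative buds, -0.38 to 0.54 for age 6 minus 5 and -0.19 to 0.053 for June minus May basal tips. For vegetative buds minus June tips it gave -0.60 to -0.31, called in 3 of 15 fits. The likeness to V016F11 was 0.40 without floral buds and 0.62 by rank.

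With the isolation letter as a replicate block the floral rise was 2.50 (adjusted p = 1.1e-06), and no call changed. The letters share only a name: deviations correlated between groups at a median of -0.01. PTD is among the dimmest 25% of oligos, so the fit without them gave no value. A set term allowed no fit for June tips by age, June minus May upper tips, vegetative buds minus June tips and the F test, nor, with the sets drawn from deposited values, for floral buds against tips, basal against upper tips, June minus May basal tips and vegetative buds against May tips.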
